A study of Mus musculus with 4 samples.

Results

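Chamber endocardial cells line the lumen of the developing ventricles and atria, and 1208 of them were found among 28025 cells kept from E10.5 mouse hearts. They were chosen by the transcripts that single cells carried. A cell had to hold at least 2 unique molecular identifiers (UMIs, each counting 1 captured mRNA molecule) of the endothelial genes Cdh5 and Pecam1 together and at least 1 UMI of Npr3, a clearance receptor for natriuretic peptides. It also had to lack Wnt4 and Twist1, hold at most 1 UMI of Nts, and hold fewer than 10 UMIs of the cardiomyocyte gene Tnnt2 per 10000 UMIs of the cell. Of 7205 cells that met the Cdh5 and Pecam1 condition, 5997 failed another condition and serve below as the other endothelial cells.

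The study examined how a defect of sterol synthesis affects the embryonic heart. Single-cell RNA-seq libraries were made from whole hearts of C57BL/6J embryos, with 2 libraries from wild-type (Wt) embryos and 2 from embryos homozygous for Cyp51 I383V (Ho). Cyp51 encodes lanosterol demethylase, and the I383V substitution was introduced by CRISPR/Cas9, an agent that the labels give for all 4 libraries. The substitution is present in every cell of the embryo, so an effect within the endocardium and an effect of the surrounding tissue cannot be told apart. How many hearts went into a library, and whether replicates came from separate litters, is not given in the sources used here. The p-values therefore measure at most the spread between libraries.

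The endocardium is the endothelial layer of the heart. It arises with the first heart tube and signals to the myocardium through neuregulin, endothelin, ephrin and Notch ligands, which are known to guide trabeculation. Over the atrioventricular canal and outflow tract some of its cells become the mesenchyme of the cushions, and there they turn on Twist1, Snai1, Msx1, Has2 and Vcan. Over the chambers they stay endothelial and keep Npr3, and part of the coronary vessels is known to descend from them.

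Wt replicate 1 gave 267 chamber endocardial cells, Wt replicate 2 gave 374, Ho replicate 1 gave 349 and Ho replicate 2 gave 218. Together these cells held 3668374, 5990843, 5840628 and 3852857 UMIs, in the same order of libraries, and these sums are the values compared below. The median cell held 12568, 14831, 15070 and 16040 UMIs. Other endothelial cells were deeper, with medians of 14185, 16724, 17450 and 16984 UMIs. A condition that asks for absence is met more easily in a shallow cell, so the rule is sensitive to depth. The UMIs of Npr3 per chosen cell ran from 1 to 11, 14, 15 and 14, with medians of 2, 3, 3 and 3.

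Checked in the order Tnnt2, Twist1, Wnt4, Nts and Npr3, the first condition that failed was Tnnt2 in 375 of the other endothelial cells, Twist1 in 3627, Wnt4 in 1350, Nts in 286 and Npr3 in 359. The Tnnt2 failures numbered 38 and 79 in Wt replicates 1 and 2 and 225 and 33 in Ho replicates 1 and 2. These cells count among the other endothelial cells and in the share among endothelial cells below. Just inside the thresholds lay 267 cells with a single Npr3 UMI, 104 with Cdh5 and Pecam1 summing to 2 UMIs, 41 with 1 Nts UMI and 29 with 5 to under 10 Tnnt2 UMIs per 10000. Of these 29 cells, 19 were from Ho replicate 1. Just outside lay 359 cells without Npr3, 441 with 1 Wnt4 UMI, 415 with 1 Twist1 UMI, 21 with 2 Nts UMIs and 54 with 10 to under 20 Tnnt2 UMIs per 10000, each meeting all other conditions. A further 85 cells had only 1 UMI of Cdh5 and Pecam1. Pairs of libraries shared between 14 and 34 deposited barcodes.

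Ho replicate 1 stood apart from the other libraries in 2 respects. Its chamber endocardial cells carried Xist, the RNA of the inactive X chromosome, at 348 counts per 1000000 UMIs (CPM, normalized for library composition), and no UMI of the 4 Y-linked genes, which summed to 103, 99.4 and 97.1 CPM in Wt replicate 1, Wt replicate 2 and Ho replicate 2. Those 3 libraries held no Xist UMI in these cells. By these genes Ho replicate 1 was female and the other libraries were male. The Ho group thus mixed the sexes and the Wt group did not, so sex was not balanced between genotypes. Ho replicate 1 also held the most cardiomyocyte RNA, as given with the genotype comparison, so the count of genotype calls, the cardiomyocyte list and several single genes are also given without it.

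The label was checked on genes that the rule did not use. Emcn, which encodes the endothelial sialomucin endomucin, stood at 381.5, 392.1, 329.3 and 345.6 CPM in chamber endocardial cells of Wt replicates 1 and 2 and Ho replicates 1 and 2. In other endothelial cells it stood at 237.1, 274.2, 217.9 and 245.3 CPM, and the 2 sets of cells did not overlap. After every cell was thinned to 2000 UMIs, 42.1% to 50.2% of chamber endocardial cells held an Emcn UMI. Among cells with at least 50 Tnnt2 UMIs per 10000, taken as cardiomyocytes, 0% to 0.738% did. Cells that met the Cdh5 and Pecam1 condition were left out of the cardiomyocytes, so a low share there was favoured in advance. The unthinned shares were 89.9% to 94.7% and 0.549% to 2.21%, at median depths of 12568 to 16040 and 11579 to 15853 UMIs. All 23 endothelial and all 15 endocardial list genes were detected, among them the transcription factor Nfatc1 at 35.1, 39.5, 49.4 and 48.3 CPM. Against other endothelial cells 5 endocardial genes were higher and 7 lower, Nfatc1 among the lower. Against cells with Wnt4, described below, 6 were lower and none higher. Emcn did not differ beyond its error from cells that met every condition but lacked Npr3. These values show endothelial identity, and they do not by themselves set chamber endocardium apart from other endothelium.

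**Figure D1:**
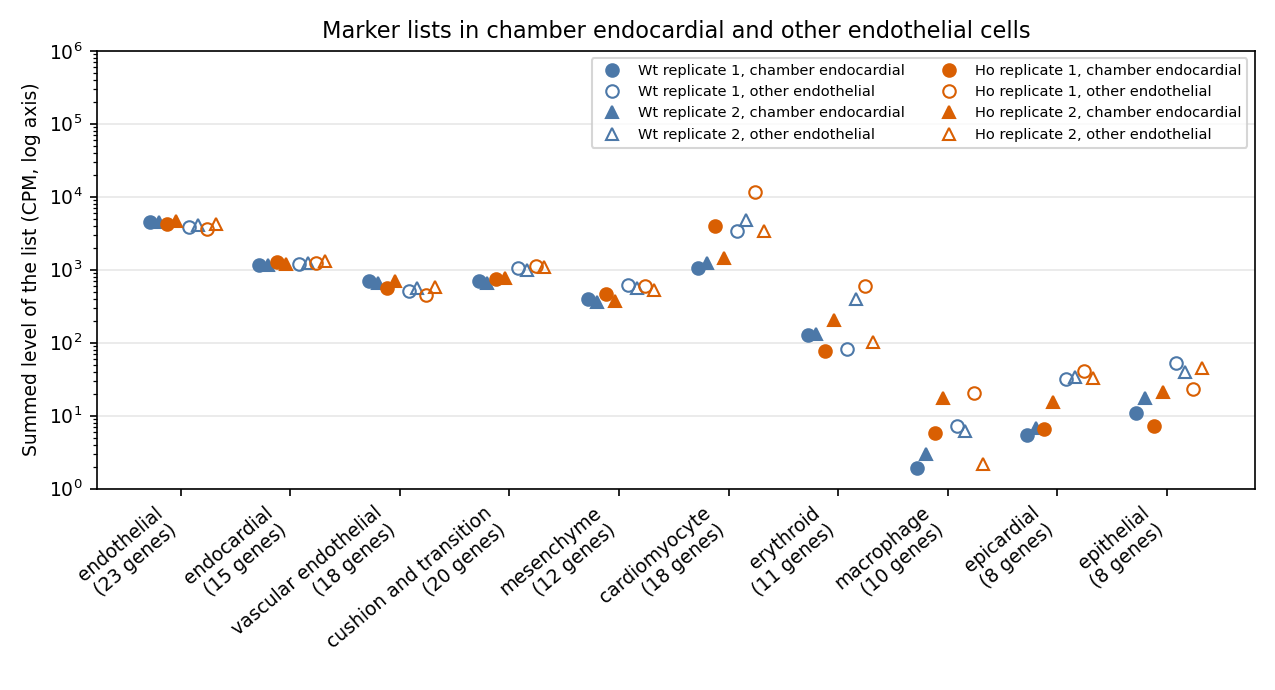
Summed level of 10 marker lists on a log axis, in CPM normalized on a scale shared by both sets of cells; each symbol is 1 library, filled for chamber endocardial and open for other endothelial cells. The endothelial list lies between 4177 and 4671 CPM in chamber endocardial cells of all 4 libraries, and the cardiomyocyte list is highest in Ho replicate 1 in both sets.

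Cardiomyocyte markers were present in chamber endocardial cells at summed levels near or above those of the endocardial list, and markers of the other cell types were lower. The 15 endocardial genes summed to 1143, 1172, 1276 and 1206 CPM. The 18 cardiomyocyte genes, led by the atrial myosin light chain Myl7, summed to 1069, 1217, 4015 and 1425 CPM in chamber endocardial cells of the 4 libraries in the order used above, and to 3369, 4785, 11446 and 3416 CPM in other endothelial cells. The 12 mesenchyme genes, led by Col3a1, summed to 392, 362, 464 and 367 CPM. Erythroid genes, led by Hbb-y, summed to 127, 131, 77.2 and 204 CPM. The 10 macrophage, 8 epicardial and 8 epithelial genes summed to at most 17.2, 15.4 and 20.9 CPM in any library, and the 6 megakaryocyte genes, led by Pf4, to at most 32.5 CPM. Scrublet, a doublet caller, scored 12, 8, 15 and 10 of the chamber endocardial cells within the expected doublet share of their library, and these cells were kept.

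Against the other endothelial cells of the same libraries, chamber endocardial cells held more Pla2g7, Dlk1, Irx5 and Itga9 and far less Igfbp7, Vcan and Cthrc1. Pla2g7 encodes a phospholipase carried on lipoproteins, and it stood at 58.1, 66.0, 63.0 and 54.3 CPM in chamber endocardial cells and at 24.0, 32.9, 27.6 and 24.8 CPM in the others. Every library of the one set was above every library of the other. The log2 fold change was 1.14 ± 0.06 (SE; adjusted p = 4.7e-13 in edgeR's quasi-likelihood test with the library as a block, n = 4 libraries a set). Its UMIs came from 109, 183, 160 and 108 cells.

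Dlk1 encodes a transmembrane protein related to the Notch ligands. It measured 70.7, 72.5, 69.4 and 39.2 CPM in chamber endocardial cells and 33.6, 38.0, 26.6 and 25.0 CPM in the others. Ho replicate 2 was lowest in both sets, and its 39.2 CPM still lay above all 4 values of the other endothelial cells. The log2 fold change was 1.05 ± 0.07. Irx5, an Iroquois homeobox factor, measured 90.5, 111, 98.2 and 124 CPM against 46.2, 62.4, 56.5 and 68.0 CPM, a log2 fold change of 0.86 ± 0.04. Integrin alpha 9, encoded by Itga9, reached 69.9, 64.0, 74.0 and 74.4 CPM against 34.0, 38.1, 38.7 and 43.0 CPM, a log2 fold change of 0.87 ± 0.05. For both genes the 2 sets did not overlap.

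Largest rises and falls were ranked among called genes with 1 sign in 4 libraries and at least 50 CPM in the higher set. The 11 others of the 15 genes with the largest rise had log2 fold changes from 0.61 (Tgfbr3, which encodes betaglycan, a co-receptor of TGF-beta) to 0.93 (Col26a1, a collagen). They included Vwf and Tfpi, which act in haemostasis, the growth factor Ptn, the collagen gene Col23a1, the nuclear import receptor Ipo11 and the genes Klhl4, Fxyd6, Tshz2 and Phactr2. Ptn measured 136, 147, 133 and 105 CPM against 90.2, 79.1, 60.6 and 69.5 CPM. Vwf measured 77.5, 79.4, 57.7 and 65.8 CPM against 39.3, 54.2, 34.6 and 45.1 CPM, without overlap.

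Under the same limit of at least 50 CPM in the higher set, the 10 largest falls included those of Igfbp7, Cthrc1, Vcan and Hba-x. Igfbp7, which encodes a secreted protein that binds insulin-like growth factors, fell from 137, 112, 113 and 139 CPM in other endothelial cells to 11.1, 9.99, 9.41 and 12.01 CPM, a log2 fold change of -3.55 ± 0.07 (adjusted p = 1.18e-20). Versican, the cushion proteoglycan encoded by Vcan, fell from 141, 123, 177 and 120 CPM to 14.0, 12.6, 26.5 and 16.4 CPM, a log2 fold change of -3.01 ± 0.07. Every library of the chamber endocardial cells was far below every library of the others for both genes. Cthrc1, S100a6, Thbs1 and Stmn2 fell by 3.11, 2.56, 2.41 and 2.11 on the log2 scale. Hba-x, an embryonic globin, fell by 5.01, but 2 libraries carried this, since other endothelial cells held 1.57, 135, 215 and 4.20 CPM. Nppa, Cox6a2 and Actc1 are cardiomyocyte genes, and they fell by 2.15, 2.10 and 2.05. Against comparison cells that also met the Tnnt2 and Twist1 conditions, their log2 fold changes were 0.018, 0.012 and 0.19. The part of either condition alone was not tested.

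**Figure D2:**
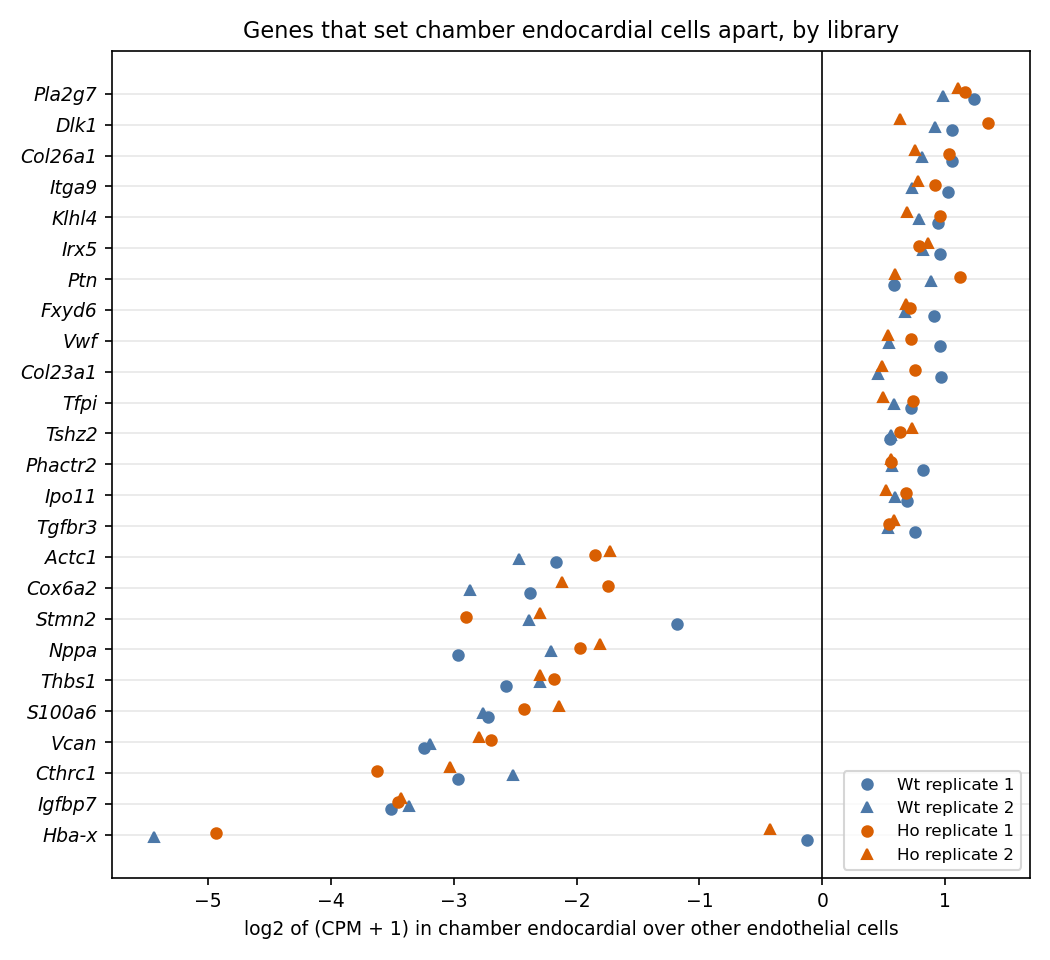
Log2 ratio of CPM + 1 in chamber endocardial over other endothelial cells for the 15 genes with the largest rise and the 10 with the largest fall, each symbol 1 library. Genes were ranked among those called with 1 sign in 4 libraries and at least 50 CPM in the higher set. Every point lies on the side of 0 that the test gave, and the points of Hba-x are the widest apart.

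Of 13215 genes tested, 3159 (23.90%) were called, of which 1381 (10.45%) were higher and 1778 (13.45%) lower in chamber endocardial cells. The 7 genes of the rule are left out of these counts. Because the rule removes every cell with a Twist1 or Wnt4 UMI, genes expressed along with these 2 were bound to fall, and the counts describe what the rule separates. The median log2 fold change over all genes was 0.01.

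Endothelial genes were mostly higher. Of 23, 14 were called higher and 1, the progenitor and endothelial gene Cd34, lower, with a median log2 fold change of 0.25. Kdr, the main VEGF receptor, stood at 166, 153, 169 and 204 CPM against 116, 121, 117 and 141 CPM, without overlap. Plvap, of endothelial diaphragms, and Egfl7, a secreted endothelial protein, rose by 0.46 and 0.30 on the log2 scale. The list of VEGF and Tie receptors and ligands had 7 higher and 4 lower of 14 tested, with Pgf, Ptprb, Vegfa and Angpt1 lower.

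Vascular endothelial genes were higher in 7 and lower in 3 of 16 tested. The gap junction gene Gja4 was the most abundant, at 309, 342, 256 and 317 CPM against 177, 268, 174 and 228 CPM. Nr2f2, a factor of venous and atrial identity, measured 36.2, 37.5, 39.95 and 44.4 CPM against 22.5, 22.1, 24.0 and 24.5 CPM, with every library of the chamber endocardial cells higher. Unc5b, a netrin receptor gene, and Cxcr4, a chemokine receptor gene present at under 2 CPM, fell by 1.21 and 2.06 on the log2 scale.

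Genes of the cushion and of the transition to mesenchyme were lower in 12 and higher in 3 of 20 tested, with a median of -0.75. Sox9, Has2, Msx1 and Snai1 fell by 2.78, 1.99, 1.13 and 0.66 on the log2 scale. The link protein gene Hapln1, the most abundant of the list, stood at 333, 324, 379 and 397 CPM against 460, 417, 489 and 524 CPM, so chamber endocardial cells still held much of it. Zeb1, Tgfbr3 and Cdh11 were higher. Of 12 mesenchyme genes 10 were lower, a direction that the Twist1 condition favours.

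Endocardial genes were split. Of 15 tested, 5 were higher (Tmem100, Ece1, Plxnd1, Foxc1 and Adgrg6) and 7 were lower, with a median of 0.01. Gata4 measured 46.7, 52.2, 57.3 and 59.5 CPM in chamber endocardial cells against 77.4, 75.7, 84.9 and 92.9 CPM, a log2 fold change of -0.61 ± 0.05, and Tbx20 fell by 1.53. Nfatc1, Gata5, Gata6, Smad6 and Adamts1 were lower by 0.24 to 0.59 on the log2 scale.

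Flow-responsive genes were lower in 9 and higher in 2 of 17 tested. Klf2, the main shear-stress factor of endothelium, stood at 138, 157, 158 and 223 CPM against 212, 248, 248 and 324 CPM, and Ho replicate 2 was highest in both sets. Within each library the chamber endocardial cells were lower, and the log2 fold change was -0.62 ± 0.03. Klf4 and Edn1 fell by 1.14 and 0.89 on the log2 scale. Edn1 encodes endothelin 1, and its converting enzyme Ece1 was higher, by 0.20.

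Among signals to the myocardium, Nrg1, which encodes neuregulin 1, did not pass the test, with a log2 fold change of 0.11 ± 0.07 (adjusted p = 0.251). Efnb2, which encodes ephrin B2, rose by 0.33. Bmp2, Bmp4, Dhh and Wnt9b were lower, and 7 of the 16 tested genes of this list were lower and 3 higher. In the Notch pathway 2 of 18 genes, the ligands Dll1 and Dll4, were higher, and 4 were lower, Jag1, Jag2, Hey2 and Heyl. Genes of BMP and TGF-beta signalling were lower in 12 and higher in 2 of 29, and those of matrix and basement membrane lower in 11 and higher in 5 of 24, among them Col4a1, Col4a2, Fn1 and Nid1 on the higher side.

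Cell cycle genes were slightly higher. Of 27 S phase genes 16 were called higher and none lower, with a median of 0.14, and of 30 G2/M genes 15 were higher and none lower, with a median of 0.13. Cholesterol synthesis genes were higher in 4 of 21, among them Sqle and Msmo1, and lower in 1, Hsd17b7. Apoe, the apolipoprotein of sterol transport, stood at 883, 1006, 879 and 779 CPM against 649, 731, 655 and 616 CPM, without overlap. In the hedgehog list 6 of 13 were lower and 1, Sufu, higher. Glycolysis and hypoxia genes were split, 4 higher and 5 lower of 22, and heat shock and early response genes were lower in 9 and higher in 3 of 22.

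A pair of narrower comparisons asked how these genes stood against closer cells. They were added after the first results were seen. The first took the 1350 cells that had no Twist1 UMI and passed the Tnnt2 condition but held the Wnt ligand gene Wnt4, whether or not they held Npr3. Against these, 378 of 11451 genes (3.3%) were higher and 736 (6.43%) lower in chamber endocardial cells. Ptn had a log2 fold change of 1.11 ± 0.08, Pla2g7 of 0.58 ± 0.07 and Dlk1 of 0.51 ± 0.08, whereas Irx5 (0.04 ± 0.05) and Tgfbr3 (0.01 ± 0.06) did not pass. Cldn5, which encodes the tight junction protein claudin 5, rose by 1.72, but its level differed widely between libraries, at 47.8, 23.6, 10.8 and 44.6 CPM. Igfbp7, S100a6, Vcan, Klf2 and Tbx20 fell by 2.84, 2.26, 1.59, 0.80 and 0.86 on the log2 scale.

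The endothelial list, mostly higher against all other endothelial cells, had 3 genes higher and 6 lower of 23 here, with a median of -0.05. In the same comparison 1 cushion gene was higher and 5 were lower of 17 tested, with a median of 0.01. Of 15 endocardial genes 6 were lower and none higher, and of 23 matrix genes 13 were lower and 1 higher. G2/M genes were higher in 14 of 30, and S phase genes in none of 27. Cardiomyocyte genes turned around, with 9 of 18 higher and none lower and a median of 0.38, after all 18 had been lower against the whole set of other endothelial cells. Actc1, for example, had a log2 fold change of -2.05 ± 0.07 in the whole set and of 0.33 ± 0.05 here.

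The second narrower comparison took the 359 cells that met every condition but held no Npr3. Here 380 of 10475 genes (3.63%) were higher and 536 (5.12%) lower. Irx5 had a log2 fold change of 1.97 ± 0.15, Col26a1 of 1.77 ± 0.15, Dlk1 of 1.62 ± 0.14 and Tgfbr3 of 1.38 ± 0.15. Postn, Adgrg6 and Hand2, all known in endocardium, rose by 1.94, 1.50 and 0.92. Emcn did not differ beyond its error, at -0.02. Endocardial genes were higher in 5 and lower in 1 of 15. Endothelial genes were higher in 1 and lower in 6 of 23, with a median of -0.06. Of 14 vascular endothelial genes 6 were lower and none higher. Aplnr, Nrp2, Gja5, Sox17 and Unc5b fell by 2.51, 1.44, 1.12, 1.08 and 1.03 on the log2 scale, and Cldn5 by 1.79. The comparison cells were few, 127, 112, 64 and 56 a library, and shallower, with median UMIs of 11093, 10332, 10370.5 and 12715.

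Ribosomal and mitochondrial genes aside, the most abundant transcripts of chamber endocardial cells were Ppia, Cdkn1c, Tmsb10, Ptma, Malat1, Hsp90ab1, Fau, H2afz, Ubb and Vim. Cdkn1c, an imprinted inhibitor of the cell cycle, stood at 10248, 12339, 11214 and 10562 CPM, above the 7549, 10166, 8090 and 8620 CPM of other endothelial cells. Its log2 fold change was 0.37 ± 0.03 against all of these, 1.57 against cells without Npr3, and -0.25 against cells with Wnt4.

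Variation from cell to cell was described by the variance of thinned counts divided by their mean, which is near 1 for counting noise alone. The 10 highest genes by the median over libraries were Myl7, Cdkn1c, Tagln, Tmsb4x, Hbb-y, Acta2, Malat1, Actc1, Myl4 and Wdcp. The ratio for Cdkn1c was 9.78, 8.99, 6.43 and 10.1, and 95.5% to 99.1% of cells held a UMI of it, so its count differed widely among cells. What part of these UMIs came from RNA in the suspension was not measured. For Myl7 the ratio was 3.26, 4.65, 19.6 and 15.1, and 18.0%, 22.5%, 33.2% and 22.0% of thinned cells held a UMI. One cell of Ho replicate 1 held 708 Myl7 UMIs, and one of Ho replicate 2 held 378.

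Genotype was compared over the library sums of chamber endocardial cells, 2 Ho against 2 Wt. Cyp51 lies at chr5:4081145-4104746 on the minus strand of GRCm38, and it measured 49.7 and 40.8 CPM in Wt and 41.0 and 37.6 CPM in Ho. The libraries overlapped, and the log2 fold change was -0.18 ± 0.14 (adjusted p = 0.874 by edgeR). A substitution need not alter the count, so this value does not check the labels.

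Of 11008 genes tested, 1 (0.00908%) passed an adjusted p of 0.05 in edgeR's quasi-likelihood test, and 714 (6.49%) had an unadjusted p under 0.05. The same test called 0 genes without Wt replicate 1, 0 without Wt replicate 2, 136 without Ho replicate 1 and 352 without Ho replicate 2, and DESeq2 called 9.

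The called gene was Olfr889, an olfactory receptor gene at chr9:38115198-38121245 (plus strand, GRCm38). It stood at 1.08 and 0.655 CPM in Wt and at 12.96 and 11.5 CPM in Ho, without overlap, a log2 fold change of 3.87 ± 0.36 (adjusted p = 0.0142). Olfr889 passed the filter on low counts through the Ho libraries alone. With at least 10 counts required in every library it was not tested, and 0 genes were called. The UMIs behind its levels were 4, 4, 73 and 44, and few cells held them. In Ho replicate 1 they came from 11 cells, with 31 UMIs in one of these, and in Ho replicate 2 from 8 cells, with 25 UMIs in one. Other endothelial cells held 4.28 and 1.39 CPM in Wt and 12.3 and 7.34 CPM in Ho. Whether the UMIs counted for Olfr889 are its own transcripts or another transcript mapped to it was not tested.

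The other 9 genes with the smallest p did not pass the adjusted threshold in this fit and are given as a description. DESeq2 gave Olfr889 no adjusted p, and by it Hist1h1e (adjusted p = 0.000715), Rps27rt (0.00606), Wdr89 (0.00719) and Slc38a2 (0.0129) passed. Without a filter on low counts Hist1h1e passed in edgeR (adjusted p = 1.63e-10), in a fit that also called Xist and the Y-linked genes. Those genes set Ho replicate 1 alone apart. Hist1h1e also passed in edgeR with a replicate block (adjusted p = 0.0335), with at least 2 Npr3 UMIs a cell (0.0143) and with Tnnt2 under 5 UMIs per 10000 (0.0447). It did not pass without Wt replicate 1 (0.24) or without Wt replicate 2 (0.835), with log2 fold changes of -1.03 and -0.82, nor without Scrublet doublets (0.0913) or with at least 10 counts in every library (0.155). With the rule on thinned cells the log2 fold change was -0.36 (0.998). In edgeR fits of all 4 libraries Gm50115 and Wdr89 passed with a replicate block, Gm50115 without Scrublet doublets, Gm50115 and Rps27rt with Tnnt2 under 5 UMIs, and Rps27rt, Wdr89, Slc38a2, Dqx1 and Mt1 with at least 2 Npr3 UMIs. Without a filter on low counts, without Ho replicate 1 and without Ho replicate 2 all 9 passed, and without either Wt library none did. Hist1h1e, which encodes a linker histone, stood at 104 and 120 CPM in Wt and at 62.5 and 54.6 CPM in Ho, without overlap, with a log2 fold change of -0.93 and an adjusted p of 0.0722 in edgeR. Its UMIs came from 118, 194, 148 and 86 cells. In other endothelial cells the levels were 98.2 and 109 CPM in Wt and 69.8 and 65.9 CPM in Ho, so both kinds of cell showed the same order. Slc38a2, an amino acid transporter gene, stood at 178 and 169 CPM in Wt and 266 and 248 CPM in Ho, with a log2 fold change of 0.57 (adjusted p = 0.211 in edgeR), and Wdr89 at 44.3 and 51.1 CPM against 80.2 and 94.0 CPM.

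Others of the 9 rested on few cells. Of 68 UMIs of Gm50115, an antisense transcript, in Ho replicate 1, all came from 1 cell, and of 29 in Ho replicate 2, 28 came from 1 cell. Dqx1 had 38 of 43 UMIs in 1 cell of Ho replicate 1 and 33 of 42 in 1 cell of Ho replicate 2, and Hook2 had 45 of 82 and 32 of 42. Mapping of another transcript to Gm50115, Dqx1 or Hook2 was not tested either. Mt1, a metallothionein, stood at 5.13 and 4.09 CPM in Wt and 15.98 and 11.2 CPM in Ho. Rps27rt, a copy of the ribosomal gene Rps27, and Gm11808 were higher in both Ho libraries, but reads of near-identical genes can be split between copies, so their levels are uncertain.

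**Figure D3:**
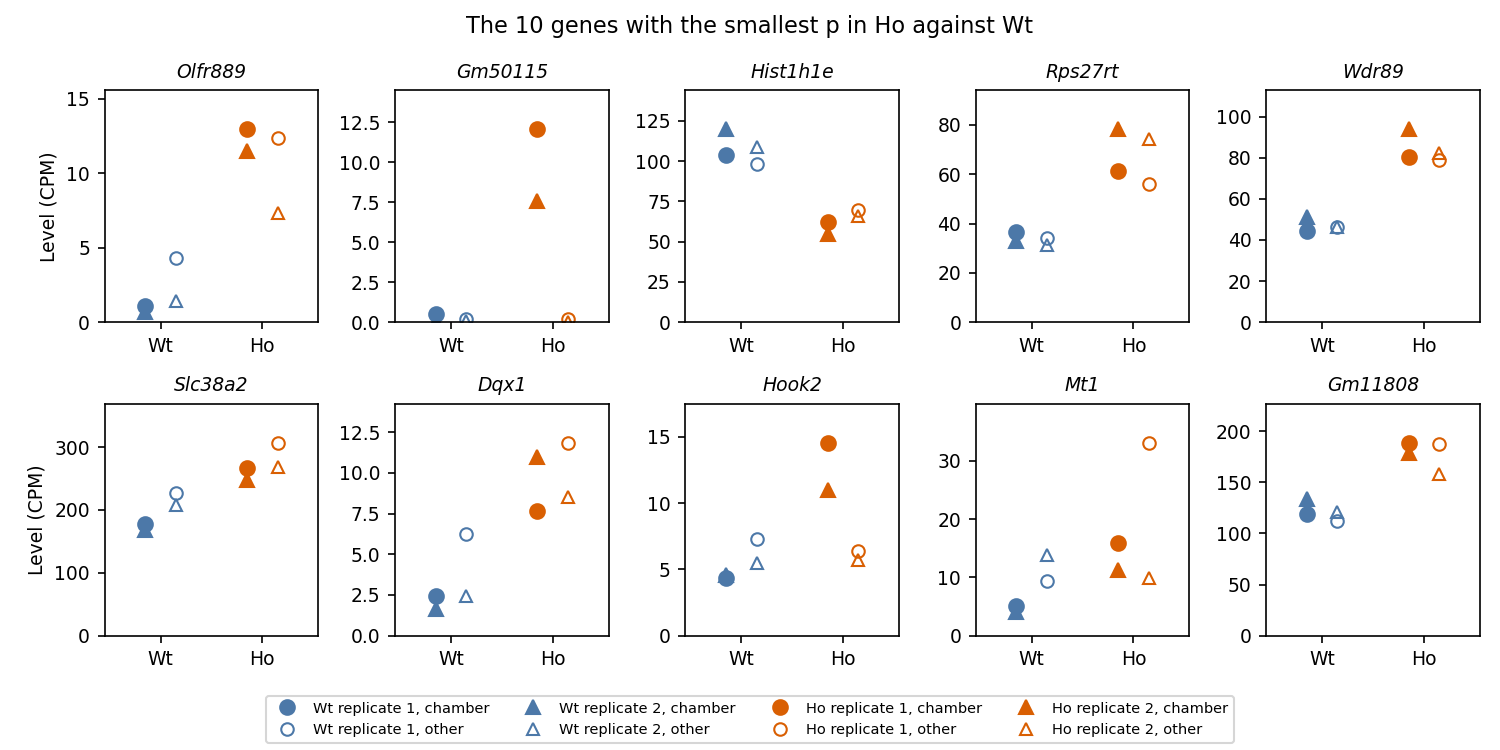
Level in CPM of the 10 genes with the smallest p in Ho against Wt, each symbol 1 library, filled for chamber endocardial and open for other endothelial cells. Of the 10, only Olfr889 passed the adjusted threshold, and in other endothelial cells Gm50115 stays under 0.21 CPM.

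In the filtered edgeR fit of all 4 libraries, no gene of the 27 lists passed the adjusted threshold for genotype. No gene of the macrophage and X inactivation lists passed the filter on low counts, so none was tested. Xist was abundant in Ho replicate 1 but had UMIs in that library alone. Under other settings list genes did pass. Without a filter on low counts 16 of 18 cardiomyocyte genes, Xist and all 4 Y-linked genes were among them. Xist and the Y-linked genes set Ho replicate 1 alone apart, so the p-values of that fit do not measure the spread between libraries. Over all genes the median log2 fold change was 0.002, and 18.26% of genes had both Ho values above both Wt values, whereas 17.91% had both below. Among 15 endocardial genes both Ho libraries were above both Wt for 7 and below for 1, with a median of 0.15. The one below was Nrg1, at 43.2 and 39.5 CPM in Wt and 32.1 and 28.2 CPM in Ho, a log2 fold change of -0.44 ± 0.14 (unadjusted p = 0.012, adjusted p = 0.699 by edgeR). Gata4 measured 46.7 and 52.2 CPM in Wt and 57.3 and 59.5 CPM in Ho, a log2 fold change of 0.23 ± 0.12. Neither is a call.

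Emcn measured 381.5 and 392.1 CPM in Wt and 329.3 and 345.6 CPM in Ho, a log2 fold change of -0.20 ± 0.09 (adjusted p = 0.767 by edgeR). Of the 23 endothelial genes both Ho libraries were above Wt for 2 and below for 4, with a median of -0.03. For 16 cushion and transition genes these counts were 6 and 0, with a median of 0.18. Tgfb2, a ligand of the transition, measured 18.6 and 20.8 CPM in Wt and 28.2 and 26.9 CPM in Ho, and Vcan 14.0 and 12.6 CPM against 26.5 and 16.4 CPM. The genotypes did not overlap for either gene, and neither passed. The log2 fold change of Vcan was 0.73, and it was 0.32 without Ho replicate 1 and 0.34 with Tnnt2 under 5 UMIs per 10000. After thinning, Vcan was seen in 32.8%, 36.2%, 44.5% and 45.1% of cardiomyocytes, against 3.00%, 2.14%, 2.87% and 1.83% of chamber endocardial cells. The cardiomyocyte list summed to 1069 and 1217 CPM in Wt and to 4015 and 1425 CPM in Ho, so its rise lay mostly in Ho replicate 1. The part of cardiomyocyte RNA in the values of the cushion and transition list was not tested.

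In the Notch pathway the Ho libraries were above Wt for 5 and below for 2 of 17 genes. Hes1, the most abundant and a direct target of Notch, measured 118 and 141 CPM in Wt and 201 and 152 CPM in Ho, a log2 fold change of 0.45 ± 0.14, and of 0.22 without Ho replicate 1. For BMP and TGF-beta signalling the counts were 8 above and 1 below of 25, and Id2 measured 160 and 159 CPM in Wt and 222 and 186 CPM in Ho, a log2 fold change of 0.36, and of 0.22 without Ho replicate 1. Edn1 measured 43.7 and 54.7 CPM in Wt and 59.1 and 78.6 CPM in Ho, a log2 fold change of 0.46, which was 0.65 without Ho replicate 1 and 0.25 without Ho replicate 2. Of 22 heat shock and early response genes 5 were above and 5 below, and Atf3, a stress-induced factor, measured 94.2 and 113 CPM in Wt and 167 and 145 CPM in Ho. Of 21 glycolysis and hypoxia genes 8 were above and 3 below, with Eno1 below, at 263 and 222 CPM in Wt and 180 and 184 CPM in Ho. None of these passed in the filtered edgeR fit of all 4 libraries. Without a filter on low counts Atf3 (adjusted p = 0.000173 by edgeR), Hes1 (0.0126), Eno1 (0.0156) and Vcan (0.0335) passed. That fit also called Xist and the Y-linked genes, which set Ho replicate 1 alone apart, so these p-values do not measure the spread between libraries. Fits without 1 of the Ho libraries are given here by effect size only, since the Ho library left is taken to vary like the Wt libraries.

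Sterol genes gave no call between genotypes. Of 21 cholesterol synthesis genes both Ho libraries were above both Wt for 4 and below for 4, with a median of 0.02. Fdps, which encodes farnesyl diphosphate synthase and is the most abundant, measured 227.1 and 227.0 CPM in Wt and 249.8 and 279 CPM in Ho, a log2 fold change of 0.22 ± 0.09. Of 20 genes of sterol regulation and transport 2 were above and 4 below, with a median of -0.01.

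The most abundant genes of the other lists did not pass either in the filtered edgeR fit of all 4 libraries. Without a filter on low counts some did, Pf4, Nppa and Fcer1g among them. Ramp2, a receptor activity-modifying gene and the most abundant endothelial gene, measured 1244 and 1309 CPM in Wt and 1138 and 1274 CPM in Ho. Igf2, Id3 and Fn1 had log2 fold changes of -0.08, -0.15 and 0.11, and Gapdh, Ube2c and Tyms of 0.05, 0.00 and -0.11. Of the members with the smallest p in their lists, Cdc45, a replication factor, measured 22.1 and 21.1 CPM in Wt and 16.5 and 13.8 CPM in Ho (adjusted p = 0.734 by edgeR). Tie1, Nuf2, Gja5 and Abcg1 had log2 fold changes of -0.20, 0.40, -0.96 and -1.23, and none passed in the filtered edgeR fit of all 4 libraries. Without a filter on low counts Gja5 passed as lower.

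Hedgehog signalling, which depends on sterols, had little expression here. Gli1, its transcriptional target, was seen as 1 UMI in Wt replicate 1 and none in the other 3 libraries. Ptch1, the receptor and also a target, measured 17.6 and 14.9 CPM in Wt and 17.0 and 18.0 CPM in Ho, which overlap, a log2 fold change of 0.12 ± 0.18. For none of the 9 hedgehog genes tested did the genotypes separate.

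**Figure D4:**
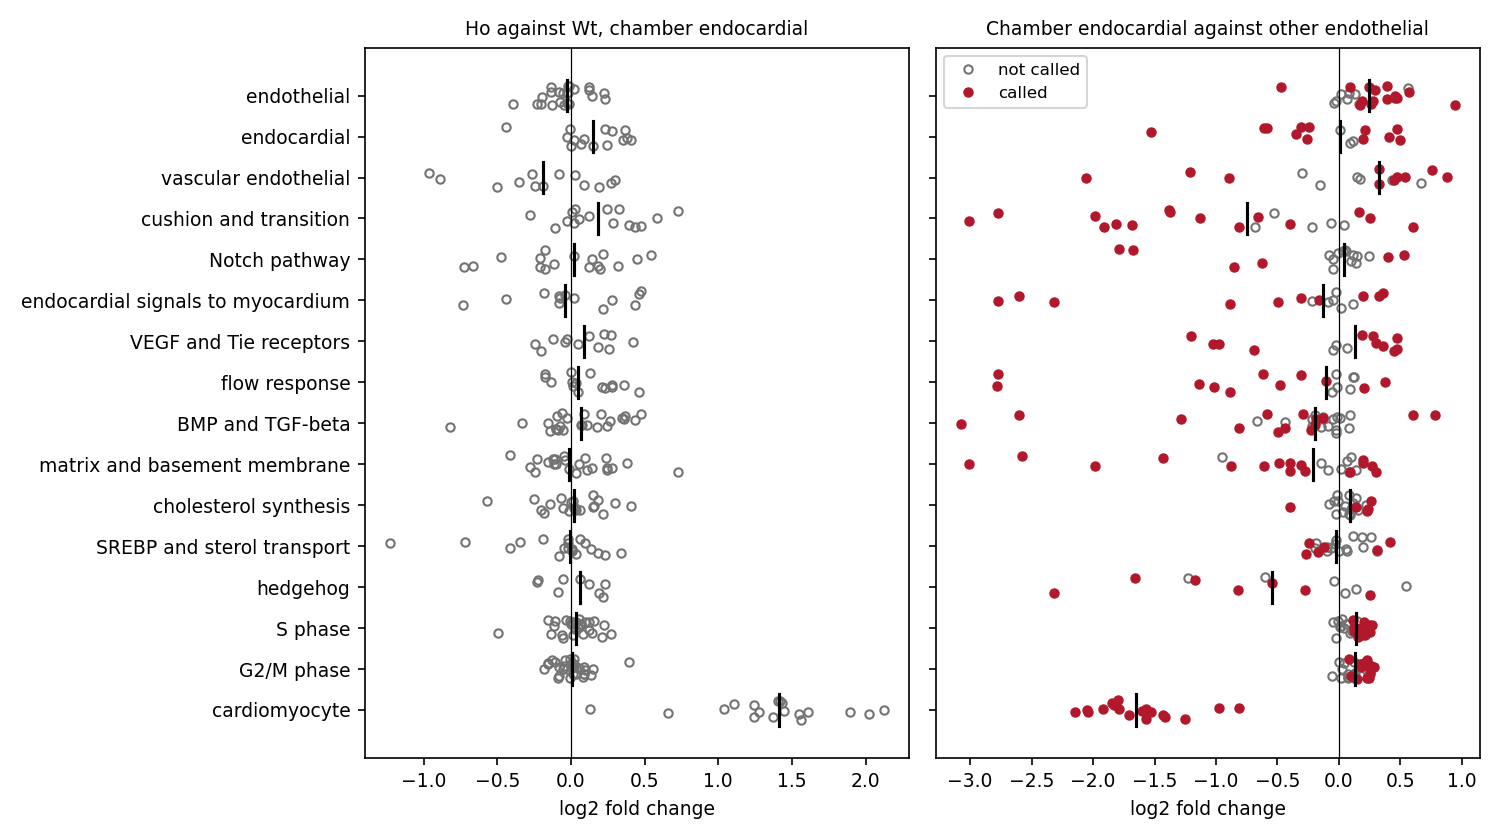
Log2 fold change of each tested gene of 16 lists, on the left for Ho against Wt in chamber endocardial cells and on the right for chamber endocardial against other endothelial cells; filled points passed an adjusted p of 0.05 and bars mark list medians. On the left no point is filled and the cardiomyocyte list stands apart at a median of 1.41, whereas on the right that list has a median of -1.65.

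Cardiomyocyte genes had the highest median among the lists of more than 10 tested genes in the genotype comparison. All 18 had a positive log2 fold change, and none passed. Myl7 measured 154 and 203 CPM in Wt and 1153 and 400 CPM in Ho, a log2 fold change of 2.12 ± 0.39 (adjusted p = 0.31 by edgeR). Myh6 measured 13.5 and 17.0 CPM against 93.6 and 29.2 CPM. Ho replicate 1 was highest for both genes, as it was in the summed list. Without it, 9 of 16 cardiomyocyte genes tested had a positive log2 fold change, the median of the list went from 1.41 to 0.05, and the log2 fold change of Myh6 went from 2.02 to 0.91, with Myl7 and Myh6 passing. With at least 2 Npr3 UMIs a cell 3 of 16 passed (Myl7, Myh6 and Actc1), and with a replicate block Myh7 did. Without Ho replicate 1 the log2 fold change of Myl7 was 1.153 and passed (adjusted p = 9.88e-26 by edgeR), without Ho replicate 2 it was 2.68 and passed (9.27e-153), and the lone Ho library was then taken to vary like the Wt libraries. With cells limited to under 5 Tnnt2 UMIs per 10000 it was 0.92 and did not pass (adjusted p = 0.828), and without Scrublet doublets it was 1.44 and did not pass (0.769). It passed with all 4 libraries when cells had at least 2 Npr3 UMIs (2.63, adjusted p = 0.00809) and without a filter on low counts (2.11, adjusted p = 3.19e-85). The fit without that filter also called Xist and the Y-linked genes, which set Ho replicate 1 alone apart. Its p-values thus do not measure the spread between libraries. The limit of 5 Tnnt2 UMIs per 10000 removed 3 and 4 cells of the Wt replicates and 19 and 3 of the Ho replicates. Under that limit the median of the list was 0.43. Cardiomyocyte RNA in the suspension, doublets and expression in the cells themselves cannot be told apart in these sums.

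The same genes led the test of whether genotype acted differently in chamber endocardial and other endothelial cells. Of 13222 genes 7 (0.0529%) passed, and 538 (4.07%) had an unadjusted p under 0.05. Myl7, Myh6, Actc1, Sh3bgr and Ankrd1, genes of heart muscle, had larger Ho effects in chamber endocardial cells, as had Hook2. Arhgef40 was lower in Ho in chamber endocardial cells, with a log2 fold change of -0.90, and stood at 27.8 and 32.3 CPM in Wt and 31.9 and 41.4 CPM in Ho in the others. For Myl7 the other endothelial cells stood at 888 and 1090 CPM in Wt and 3207 and 913 CPM in Ho. When cells were limited to under 5 Tnnt2 UMIs per 10000, no gene passed in edgeR's test, 552 had an unadjusted p under 0.05, and the Myl7 difference went from 1.12 to -0.11. Leaving out 1 library at a time gave 5 to 53 called genes, 5 without Wt replicate 2 and 53 without Ho replicate 1.

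Shares of cells were compared by an exact permutation test, which for 2 against 2 libraries cannot give a p below 0.333. Both Ho libraries were below both Wt libraries in the share among endothelial cells and above them in the share of cycling cells. With at least 2 Npr3 UMIs a cell the former was 13.3% and 14.2% in Wt and 11.6% and 13.6% in Ho, which overlap. With Tnnt2 under 5 UMIs per 10000 the latter was 8.71% and 8.65% in Wt and 8.48% and 11.6% in Ho, which also overlap. Of the endothelial cells, 17.9% (exact 95% binomial interval 16.003% to 19.96%) and 18.1% (16.5% to 19.8%) were chamber endocardial in Wt, and 14.7% (13.3% to 16.2%) and 17.1% (15.03% to 19.2%) in Ho. The means were 18.0% ± 0.136 and 15.9% ± 1.66 (SD, n = 2; exact two-sided permutation p = 0.333). When the rule was applied to cells thinned to 2000 UMIs, which left 50, 74, 75 and 42 chamber endocardial cells, the order turned, to 15.02% and 16.1% in Wt and 16.7% and 18.2% in Ho.

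As a share of all kept cells, chamber endocardial cells made up 3.22% and 5.47% in Wt and 5.03% and 3.65% in Ho, which overlap (means 4.35% ± 1.59 and 4.34% ± 0.977, SD, n = 2; exact two-sided permutation p = 1). Cycling cells, with at least 2 UMIs of Mki67 and Top2a after thinning, made up 8.61% and 8.56% of chamber endocardial cells in Wt and 9.46% and 11.5% in Ho (means 8.59% ± 0.0411 and 10.46% ± 1.42, SD, n = 2; exact two-sided permutation p = 0.333). The binomial intervals of all 4 libraries overlapped, and they cover counting error only. Without thinning the means were 45.5% and 54.0%. Other endothelial cells were cycling at 8.18% and 6.92% in Wt and 8.75% and 7.45% in Ho. With the rule on thinned cells the order turned, to means of 9.73% in Wt and 6.90% in Ho.

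**Figure D5:**
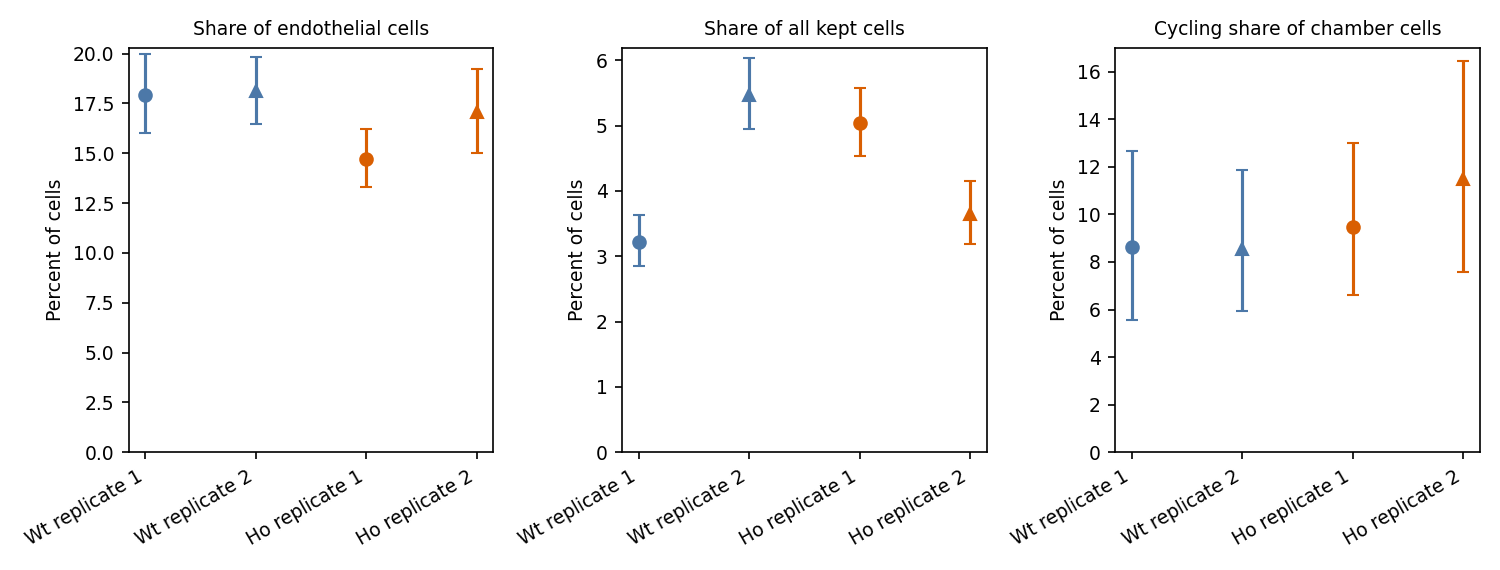
Chamber endocardial cells as a share of endothelial cells (left) and of all kept cells (middle), and cycling cells as a share of chamber endocardial cells (right), in percent; each symbol is 1 library and bars are exact 95% binomial intervals. Wt replicates give 17.9% and 18.1% and Ho replicates 14.7% and 17.1% on the left, in the middle panel the Wt values lie on both sides of the Ho values, and on the right all 4 intervals overlap.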

How the data were processed

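Libraries of single cells from E10.5 hearts, 2 Wt and 2 Ho, were analysed. The authors aligned reads to mm10 (GRCm38), counted UMIs with Cell Ranger 6.1.1 and deposited raw counts per gene and barcode; Seurat 4.1.0 also stands in the submitters' processing notes. The 33589 deposited barcodes held 109893733, 117034633, 127018819 and 107377100 UMIs in Wt replicates 1 and 2 and Ho replicates 1 and 2.

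Barcodes were kept with 500 to 6000 genes, 2000 to 50000 UMIs and at most 20% mitochondrial UMIs (8283, 6840, 6933 and 5969). UMI counts were summed per library over the chosen cells and tested with edgeR 4.0.16 in R 4.3.3 (quasi-likelihood, TMM, filterByExpr, Benjamini-Hochberg adjustment over all genes, threshold 0.05). The fits with 2 sets of cells had the library as a block. CPM are TMM-normalized on 1 scale for both sets. DESeq2 1.42.0 was an alternative. Doublets were kept; Scrublet (scanpy 1.11.5) served as an alternative, with the expected share (0.8% per 1000 cells) taken from the top scores, since its automatic threshold marked only 0 and 6 cells in 2 libraries. The fits were tested on simulated data, drawn with the spread typical of genes of like level and without an outlying library. Recovery in data with a library such as Ho replicate 1 was not measured. For Ho against Wt, 18 of 198 genes changed by 0.5 on the log2 scale were recovered, with 2 false calls. Of 197 changed by 1, 135 were recovered, with 5 false calls. Most genotype changes of 0.5 or less would thus go uncalled.

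The cells and the 27 gene lists were chosen with earlier results of these data known. Genes named were, by rule, the 10 with the smallest p for genotype, since fewer than 10 were called, the 15 highest and 10 lowest called between sets with 1 sign in 4 libraries and at least 50 CPM in the higher set, the 5 with the smallest p for the difference, the 10 most abundant and 10 most variable, and from each list the most abundant and that with the smallest p. Other genes were named after their values were seen. Replicate numbers were not used to pair the libraries, since nothing says that they mark a shared litter or day. Positions are those of GENCODE M21. No sequence was read from these data, and none is shown. Some genes of the lists are not reported here by name.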

Additional observations from a re-analysis of the deposited data

Results flagged for a closer look

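The Ho effect differed between chamber endocardial and other endothelial cells for 7 genes by an interaction test (edgeR, adjusted p from 8.89e-08 to 0.041), in 4 libraries. The log2 difference was 1.12 for Myl7, 0.97 for Myh6, 0.55 for Actc1, 1.07 for Sh3bgr, 0.94 for Ankrd1, -1.15 for Arhgef40 and 1.55 for Hook2. The first 5 are genes of heart muscle, and cardiomyocyte genes summed to 1069, 1217, 4015 and 1425 CPM in chamber endocardial cells of Wt replicates 1 and 2 and Ho replicates 1 and 2. Without Scrublet doublets the difference was 0.36 for Myl7, which passed, and 0.67, 0.22, 0.51 and 0.64 for Myh6, Actc1, Sh3bgr and Ankrd1, which did not. With Tnnt2 under 5 UMIs per 10000 none of the 7 passed. Against comparison cells with Tnnt2 under 10 UMIs per 10000 and no Twist1, 23 genes passed, with Myl7, Ankrd1 and Hook2 among the leading genes. Without Scrublet doublets 17 passed, led by Arhgef40, with Hook2 also among the leading genes. Hook2 had 45 of its 82 UMIs in Ho replicate 1 in 1 cell. Arhgef40 stood at 20.8 and 36.5 CPM in Wt and 16.9 and 14.4 CPM in Ho, and in Wt replicate 2 one cell held 88 UMIs.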

How the results depend on the processing

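Of 3 narrower sets of comparison cells, those with Tnnt2 under 10 UMIs per 10000 and no Twist1 were planned, and those with Wnt4 or without Npr3 were chosen after seeing the data. For Ho against Wt, where 1 gene was called, DESeq2 called 9, no filter on low counts 190, a minimum of 10 counts in every library 0, Scrublet doublets left out 2, the rule on thinned cells 0, at least 2 Npr3 UMIs 15, Tnnt2 under 5 UMIs per 10000 4, and leaving out 1 library 0 to 352, with the lone library of its group taken to vary like the others. A replicate block gave 5. Same-numbered libraries did not deviate together (correlation -0.0487), but 1 such correlation cannot show whether the libraries were paired. Olfr889 did not pass without Wt replicate 1 (adjusted p = 0.0732) or without Wt replicate 2 (0.451, both in edgeR).

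For chamber endocardial against other endothelial cells, where 3159 genes were called, DESeq2 called 1651, the rule on thinned cells 471, and the 3 narrower sets of comparison cells 1712, 1114 and 916. Leaving out 1 library gave 2287 to 2799. For the difference of the Ho effect, where 7 were called, DESeq2 called 2, no filter 42, the minimum of 10 counts 14, Scrublet 17, at least 2 Npr3 UMIs 29, Tnnt2 under 5 UMIs 0, the comparison cells without Twist1 23, and leaving out 1 library 5 to 53.

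The difference in the share among endothelial cells turned to 1.91 percentage points with the rule on thinned cells, and that in cycling cells to -2.82. Without thinning the latter was 8.45. Among single genes, the Ho effect turned for Fdps (-0.024, rule on thinned cells). For Ptch1 it was -0.0096 to 0.229 when 1 library was left out, negative without Wt replicate 2. It also turned for some of the 18 cardiomyocyte genes, all positive as reported. Without Ho replicate 1 it was -0.62 for Nppa, -0.40 for Nppb, -0.75 for Pln and -0.25 for Tnni3, among others. In that fit 9 of the 16 tested stayed positive. With Tnnt2 under 5 UMIs it was -0.18 for Myh7, and 12 of the 16 tested stayed positive. Against other endothelial cells, Actc1 turned to 0.19, 0.33 and 0.091 with the 3 narrower sets, Cox6a2 to 0.012 and 0.14 and Nppa to 0.018 and 0.16 with the first 2 of them, and Hba-x to 0.32 with the rule on thinned cells. The difference of effects turned with the rule on thinned cells and with Tnnt2 under 5 UMIs to -0.39 and -0.51 for Actc1, -1.23 and -0.60 for Ankrd1, -0.75 and -0.11 for Myl7, and -0.14 and -0.20 for Sh3bgr, and to -0.059 for Myh6 with the second. Except where a set held fewer cells or genes by construction, the cause was not tested.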
